A study of Bos taurus with 2 samples.

Results

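Respiratory complex I is the NADH dehydrogenase of the inner mitochondrial membrane, and its nuclear-encoded subunits were examined in the longissimus thoracis (LT) muscle of fetal calves. The 36 subunits examined are those whose symbols begin with NDUFA (NDUFA1 to NDUFA13), NDUFB (NDUFB1 to NDUFB11), NDUFC (NDUFC1 and NDUFC2), NDUFS (NDUFS1 and NDUFS3 to NDUFS8) or NDUFV (NDUFV1 to NDUFV3). They were chosen by symbol and not by their signal, and 35 of them had a value among 19554 genes with a value on the arrays. NDUFS8 was the exception, because no probe accession matched it. The 35 subunits were measured by 60 probes, 18 by 1 probe and 17 by several, and every one of these probes was well above background in both pools.

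The muscle came from male fetuses of Japanese Black cows, obtained by cesarean section at 8.5 months (day 260 ± 8.3 of gestation) after insemination of all dams with semen of the same sire. In the high-nutrition (HN) group, 6 cows were assigned to a diet meeting 120% of the requirement, and in the low-nutrition (LN) group 5 cows were assigned to 60% of it, in both cases from before pregnancy onward. RNA of the 4 heaviest HN fetuses was pooled for the HN array and RNA of the 4 lightest LN fetuses for the LN array, so that diet and selection by body weight cannot be told apart. Each pool was hybridized to 1 array. Hence the pools could not be compared by a test and no p-value is given, the spread between fetuses is unknown, and the errors given below are errors of the array measurement.

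Complex I takes electrons from NADH, passes them through a flavin and a row of iron-sulfur clusters to ubiquinone, and couples this to the pumping of protons across the membrane. Its N module in the matrix holds the NADH and flavin site, its Q module carries the electrons to ubiquinone, and its membrane arm holds the proton channels. The catalytic core was inherited from bacteria, while the many accessory subunits were added later and are needed for assembly and stability. Muscle fibers depend on the complex for the oxidative production of ATP, and oxidative fibers are richer in it than glycolytic ones.

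Transcripts of complex I differed little between the pools. All 35 subunits lay between 1.14-fold lower (NDUFV1) and 1.05-fold higher (NDUFS4) in LN than in HN, on signals normalized by the quantile method. No subunit passed a difference of 0.32 on the log2 scale, at which the LN signal is 25% above or 20% below that of HN. In contrast, 9.11% of all genes with a value were lower by more than this difference and 8.88% were higher by more than it. Dim genes vary more on an array than bright ones, and 34 of the 35 subunits belong to the 3467 genes with a mean log2 signal of 10 or more, a level chosen after the data were seen. Among those genes, 3.75% passed 0.32 on the lower side and 2.48% on the higher side. Against the shares of the bright genes, a count of 0 among 35 subunits is close to the background. In bulk muscle, fewer cells of a type and less RNA per cell cannot be told apart.

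The small differences lay mostly on the lower side. The median log2 LN/HN of the 35 subunits was -0.043 (mean -0.058, SD 0.071 over subunits), 27 subunits were lower in LN and 8 were higher. Thus 77.1% of the subunits were lower, compared with 50.7% of all genes, whose median was -0.0033. The bright genes had a median of -0.0012 and 50.3% of them were lower. The SD of log2 LN/HN was 0.17 over the bright genes and 0.30 over all genes, but the median log2 signal in HN was 11.37 for the bright genes and 14.34 for the subunits, so these sets are not matched in level. The subunits of complexes II to V, with a median signal of 14.87, had an SD of 0.068, close to that of complex I. At the level of probes, 45 of the 60 were lower in LN, with values from -0.33 to 0.18. The share of all probes lower in LN is not given here.

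**Figure D1:**
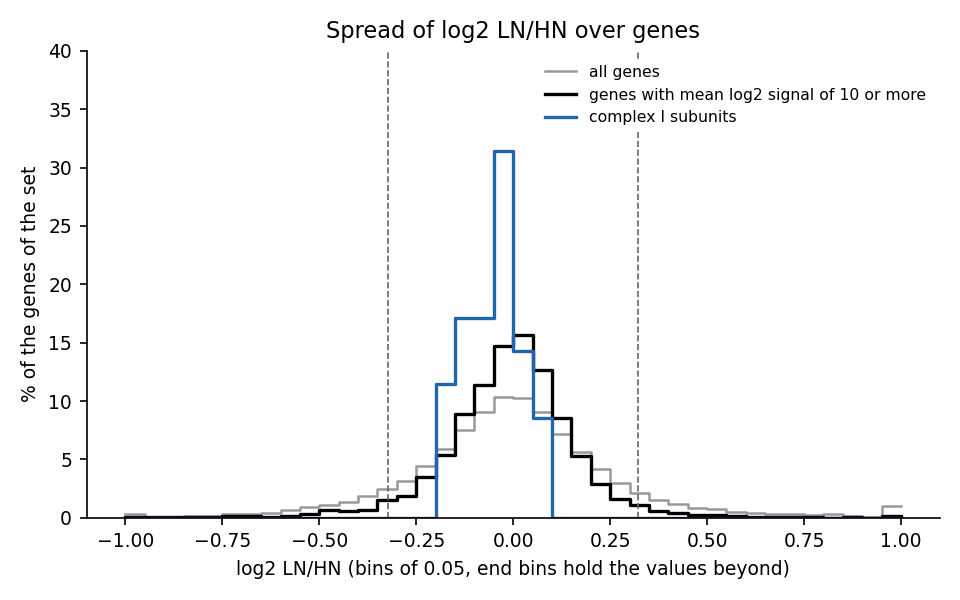
Share of genes (%, y axis) in each bin of log2 LN/HN (x axis) for all 19554 genes, the 3467 genes with a mean log2 signal of 10 or more, and the 35 complex I subunits; dashed lines mark a log2 difference of 0.32 in either direction. The subunits form a narrow peak from -0.19 to 0.065 that lies inside the dashed lines and mostly to the left of 0.

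The differences were set against the errors of the measurement that the arrays give. The log2 ratio of a single spot had an SD of 0.085, as estimated from 42 probes printed in several spots, so that 95% of single spots would lie within 0.167 of their probe's value (1.12-fold). These probes had a median log2 signal of 8.30, compared with 14.34 in HN for the subunits, so the limit was not measured at the level of the subunits, and it is for a spot and not for a mean of several probes. Only NDUFV1 and NDUFB4 lay beyond this limit, both lower in LN, and the number beyond it was 0 without normalization or with the spike-in median subtracted and 6 with the 75th percentile subtracted. The subunits beyond it also changed. With the brightest probe they were NDUFA8, lower in LN (-0.17), and NDUFS1, higher in LN (0.18), in place of NDUFV1 and NDUFB4, and with the authors' normalized values NDUFV1 was the only one. By comparison, 42.3% of all genes and 23.9% of the bright genes lay beyond the limit in either direction. The error that the scanning software assigns to each signal is larger than the SD of a spot, at 0.204 for the log2 ratio of a typical subunit. It was almost the same for all subunits (0.204 to 0.210), and all 35 lay within it. The share of all genes within their own software error is not given here, so this count has no background beside it. The probes of the same subunit differed with an SD of 0.090 over 17 subunits, compared with 0.185 over 7139 genes with several probes. In 10 of the 17 subunits every probe was lower, in 2 every probe was higher, and in 4 probes of the same gene had opposite signs. The same counts over all genes with several probes are not given here, so this agreement cannot be called particular to complex I.

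**Figure D2:**
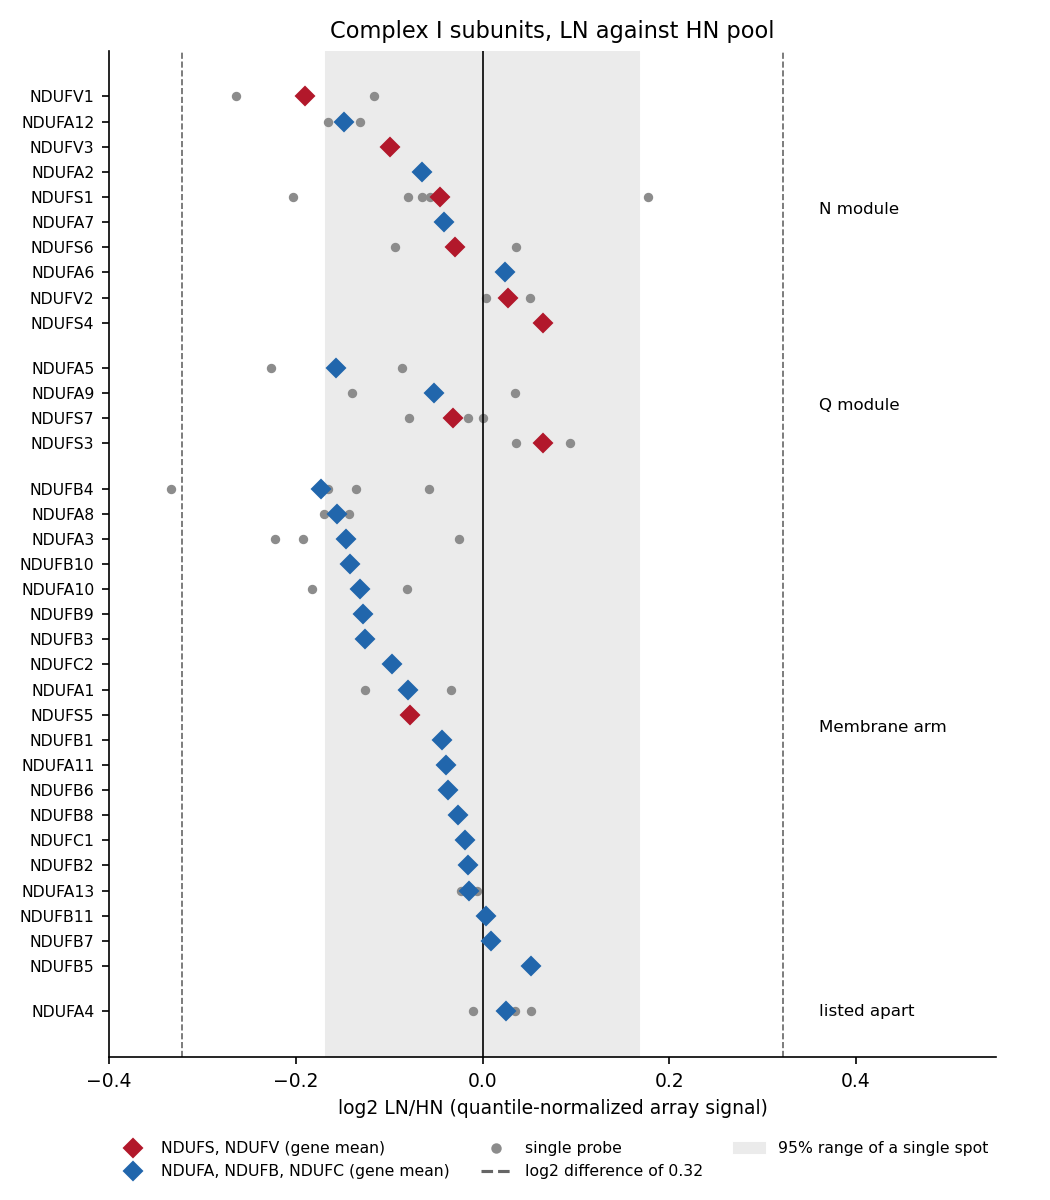
Log2 LN/HN (x axis) of each complex I subunit (y axis), grouped by the N module, the Q module and the membrane arm, with NDUFA4 listed apart; diamonds are gene means, gray points are the probes of genes with several probes, the gray band is the 95% range of a single spot, and dashed lines mark a log2 difference of 0.32. Only NDUFV1 (-0.19) and NDUFB4 (-0.17) have means to the left of the band, and no mean is to its right.

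In the N module, which oxidizes NADH, all 10 listed subunits had a value and 7 were lower in LN, with a median of -0.043, which ranged from -0.072 with the 75th percentile subtracted to -0.0043 with normexp. NDUFV1, the flavoprotein that binds NADH and the flavin, was the lowest of all subunits except with the brightest probe (NDUFA8) or the median of the probes (NDUFA3), with a log2 signal of 12.48 in HN and 12.29 in LN (-0.19). Its first probe gave 10.35 in HN and 10.09 in LN (-0.26) and its other probe gave 14.61 and 14.50 (-0.12). Both probes were thus lower in LN, by unequal amounts. NDUFV2, the iron-sulfur protein that pairs with NDUFV1, was at 14.81 in HN and 14.84 in LN (0.027). The subunits of this pair therefore did not lie on the same side of 0, although NDUFV2 was within the error of a spot.

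NDUFS1, the largest iron-sulfur subunit of the N module, was measured with 5 probes and had a mean of 8.43 in HN and 8.39 in LN (-0.045). Of its probes 4 were lower, from -0.20 to -0.056, and the brightest was higher, at 11.56 in HN and 11.74 in LN (0.18). This gene had the widest spread between probes among the subunits (0.38), so that the direction of its mean depends on the probe. NDUFS4, an accessory subunit despite its name and known for mutations that cause Leigh syndrome, was at 13.43 in HN and 13.49 in LN with 1 probe (0.065), level with NDUFS3 at the upper end of the subunits under the main processing. Under others NDUFB5, NDUFS3 or NDUFS1 was the highest. The zinc-binding NDUFS6 was at -0.029, with probes at -0.094 and 0.036, and NDUFV3, an accessory protein bound to the flavoprotein, was at -0.099. Among the NDUFA members of the module, NDUFA12 was at 14.17 in HN and 14.02 in LN, and both its probes were lower (-0.17 and -0.13). NDUFA2, which has a thioredoxin-like fold, was at -0.065, NDUFA7 at -0.041 and NDUFA6, a protein of the LYR family, at 0.024.

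In the Q module, which hands electrons to ubiquinone, 4 of the 5 listed subunits had a value and 3 were lower, with a median of -0.042, which turned to 0.0099 with the brightest probe of each gene. NDUFA5 was at 13.91 in HN and 13.76 in LN (-0.16). Its probes gave 13.42 in HN and 13.19 in LN (-0.23), and 14.41 and 14.32 (-0.087), respectively. NDUFS3, a core subunit around which the module is assembled, was at 14.27 in HN and 14.34 in LN (0.065). Its first probe gave 14.21 and 14.25 (0.036) and the other gave 14.34 and 14.43 (0.094), so that both were slightly higher in LN. NDUFS7, which carries the last iron-sulfur cluster before ubiquinone, was at -0.031 with probes from -0.079 to 0. NDUFA9, a protein of the short-chain dehydrogenase family, was at -0.052, with a lower probe (-0.14) and a higher one (0.035).

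The membrane arm was represented by 20 subunits, of which 17 were lower in LN, with a median of -0.060 (from -0.11 with the 75th percentile subtracted to -0.038 with the brightest probe). NDUFB4 was the lowest of them under the main processing, at 13.13 in HN and 12.96 in LN (-0.17), and its 4 probes were at -0.33, -0.17, -0.14 and -0.057. The first of these probes (11.84 in HN and 11.51 in LN) was the only one among the 60 that passed 0.32 in either direction. All probes of NDUFB4 were thus lower in LN, although by unequal amounts. NDUFA8, NDUFS5, NDUFB7 and NDUFB10 are disulfide-bonded subunits on the intermembrane side, and their values were -0.16, -0.078, 0.0091 and -0.14, respectively. NDUFA10, a matrix-facing relative of the deoxyribonucleoside kinases, was at -0.13, with both probes lower.

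Of the small subunits with membrane-spanning segments, NDUFA1 was at -0.079, NDUFA3 at -0.15, NDUFB3 at -0.13, NDUFC2 at -0.097 and NDUFC1 at -0.019. The probes of NDUFA3 were at -0.22, -0.19 and -0.025, and the brightest of them was the least changed. NDUFB9, a protein of the LYR family, was at -0.13 with both of its probes (a range of 0.0012, the closest pair among the subunits). The values of NDUFB1, NDUFA11, NDUFB6, NDUFB8, NDUFB2 and NDUFA13 (also called GRIM-19) lay between -0.043 and -0.014. NDUFB11 was at 0.0036. The highest member of the membrane arm was NDUFB5, at 12.42 in HN and 12.48 in LN with 1 probe (0.052). NDUFA4, which was once counted with complex I and is now placed in complex IV, was at 15.65 in HN and 15.67 in LN (0.025), with probes at -0.010, 0.034 and 0.052.

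**Figure D3:**
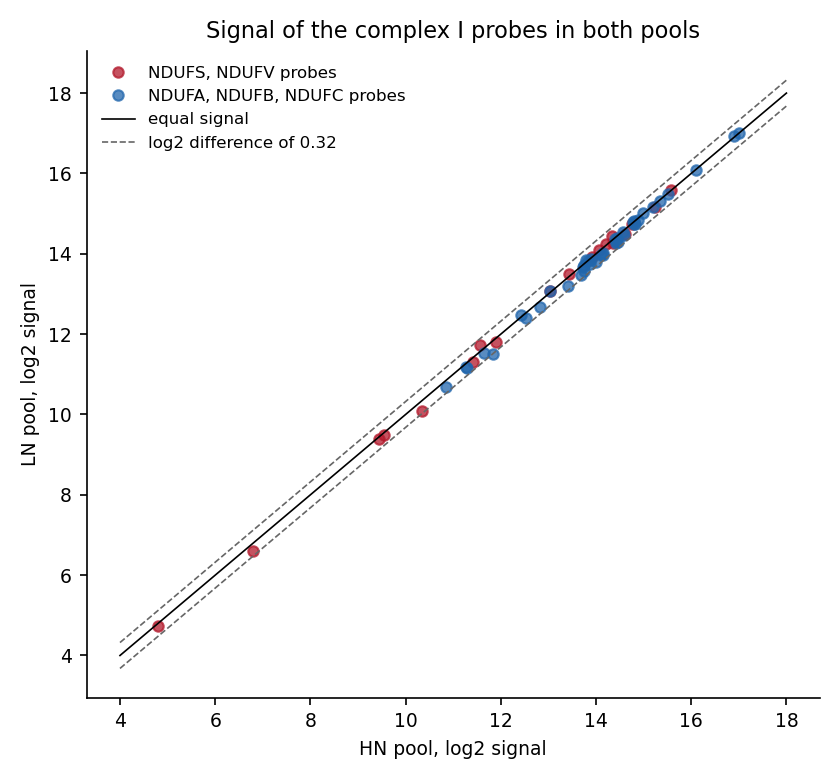
Log2 signal of the 60 complex I probes in the LN pool (y axis) against the HN pool (x axis), with NDUFS and NDUFV probes in red and NDUFA, NDUFB and NDUFC probes in blue; the solid line marks equal signal and the dashed lines a log2 difference of 0.32. The probes follow the line of equal signal over the whole range, and only a probe of NDUFB4 lies outside the dashed lines.

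The subunits named NDUFS and NDUFV, which include the nuclear-encoded catalytic core, were compared with the accessory NDUFA, NDUFB and NDUFC subunits. The 9 measured NDUFS and NDUFV subunits had a median of -0.031 (SD 0.082), which turned to 0.0056 with the normexp background correction and to 0.0035 with the brightest probe of each gene, and 6 of them were lower. The 26 accessory subunits had a median of -0.048 (SD 0.067), and 21 of them were lower. Their median ranged from -0.086 with normexp to -0.038 with the brightest probe. The medians differed by 0.017, and this difference ranged from 0.013 with the authors' normalized values to 0.091 with normexp. Both sets contain subunits on either side of 0, and their ranges overlap. Restricting the core to the conserved catalytic subunits (NDUFS1, NDUFS3, NDUFS7, NDUFV1 and NDUFV2 with a value) gave the same medians, with 3 of 5 lower against 24 of the 30 others. By name, the median was -0.065 for the 13 NDUFA subunits, -0.037 for the 11 NDUFB subunits and -0.058 for the 2 NDUFC subunits, and it reached -0.12 for NDUFA and -0.099 for NDUFC with the 75th percentile subtracted and -0.084 for NDUFB with normexp. It was -0.030 for the 6 NDUFS subunits, which turned to 0.050 with the brightest probe, and -0.099 for the 3 NDUFV subunits, which turned to 0.022 with normexp. With 1 array per pool, the difference between core and accessory subunits could not be tested.

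The proteins that assemble complex I are not part of the finished enzyme, and most of them had values above 0. Of 17 listed assembly factors, 15 had a value (NDUFAF8 and TMEM126B had no matched accession), and their median log2 LN/HN was 0.067, with 12 higher and 3 lower in LN. The number higher was 9 with the 75th percentile subtracted and 10 without normalization. None passed 0.32 in either direction. NDUFAF2, a relative of NDUFA12 that holds its place during assembly, was at 7.21 in HN and 7.49 in LN (0.29), with both probes higher (0.19 and 0.39). NDUFAF7, a methyltransferase that modifies a core subunit, was at 4.38 in HN and 4.65 in LN with 1 probe (0.27). NDUFAF1, which takes part in building the membrane arm, was at 4.15 and 4.37 with 1 probe (0.23). These factors were beyond the 95% limit of a single spot, and the remaining 12 were within it, while 42.3% of all genes were beyond it. The limit comes from spots with a higher median log2 signal (8.30) than any of these 3 factors. Only NDUFAF2 stayed beyond it in each of the 13 ways of processing (at least 0.18), while NDUFAF7 was within it in some, down to 0.045 with normexp, as was NDUFAF1, down to 0.11 with the 75th percentile subtracted. The software error was 0.21 for NDUFAF2, 0.24 for NDUFAF7 and 0.25 for NDUFAF1, so that NDUFAF1 lay within it. FOXRED1, counted as higher at 0.0054, includes a probe that was dim in 1 pool. ACAD9, counted as higher at 0.065, had a value for 2 of its 3 probes. With no filter on dim probes ACAD9 was the lowest assembly factor, at -0.317, and beyond the limit of a spot.

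Under the main processing the lowest of the assembly factors were TMEM186 (-0.089) and ECSIT (-0.089), both of which belong to the machinery for the membrane arm. In each of the 13 ways of processing the median of the assembly factors was above 0, from 0.022 with the 75th percentile subtracted to 0.085 with the brightest probe of each gene. That of the subunits was below 0 in each, from -0.073 to -0.027, although some of these ways leave the values of the subunits unchanged. The log2 signal of the assembly factors in HN ranged from 3.57 to 14.03 (median 7.21) and was thus below 10 for most of them, a range in which all genes spread more widely than in the bright set, and the part of this in their values was not tested. The 7 mitochondrially encoded subunits (ND1 to ND6 and ND4L) had no matched accession and were not analyzed here.

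**Figure D4:**
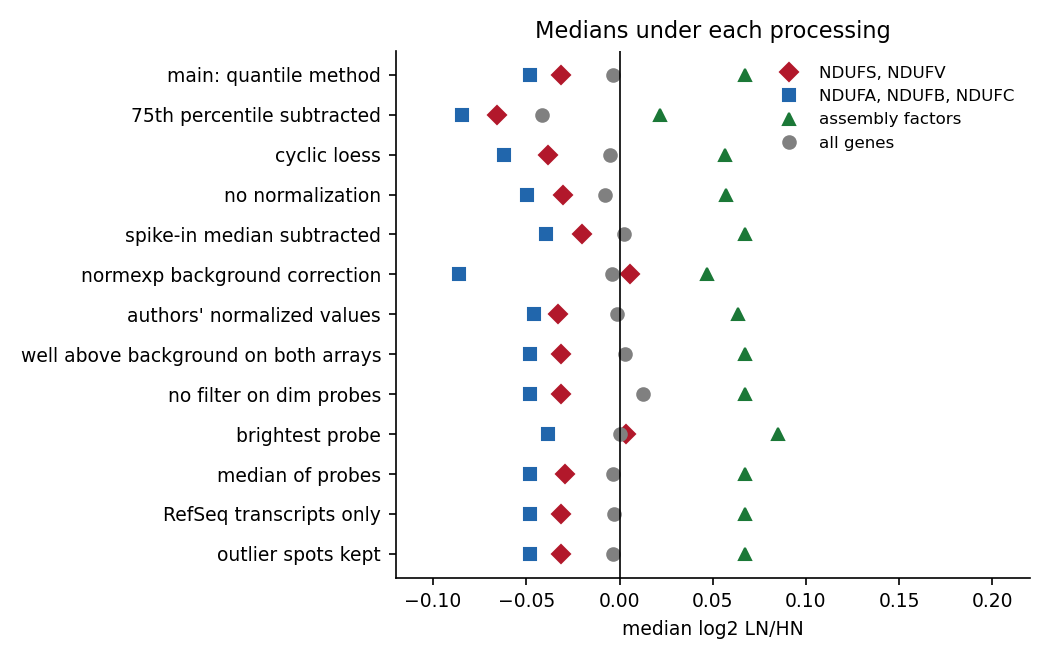
Median log2 LN/HN (x axis) of the NDUFS and NDUFV subunits, the NDUFA, NDUFB and NDUFC subunits, the assembly factors and all genes under each of the 13 ways of processing the arrays (y axis). The assembly factors lie to the right of 0 in every row and the NDUFA, NDUFB and NDUFC subunits to the left, while the NDUFS and NDUFV median crosses 0 with the normexp correction and with the brightest probe.

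The subunits of complexes II to V, which receive the electrons or use the proton gradient, also lay mostly on the lower side. Of the 41 listed, 38 had a value, with a median of -0.051, 29 lower and none past 0.32 in either direction. Their median ranged from -0.087 with the 75th percentile subtracted to -0.041 with the brightest probe. The medians were -0.078 for complex II (3 of 4 lower, but -0.0055 with the brightest probe of each gene), -0.034 for complex III (7 of 8), -0.099 for complex IV (9 of 11) and -0.024 for complex V, the ATP synthase (10 of 15). The lowest values were those of UQCRC1, a core protein of complex III (-0.21), and COX6A1, a subunit of cytochrome c oxidase (-0.19). The highest were those of SDHC, a membrane anchor of succinate dehydrogenase (0.057), and ATP5F1A, the alpha subunit of the ATP synthase (0.035). With the 75th percentile subtracted, the medians of complexes III and V were -0.072 and -0.073. A difference between complex I and the rest of the respiratory chain could not be tested.

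**Figure D5:**
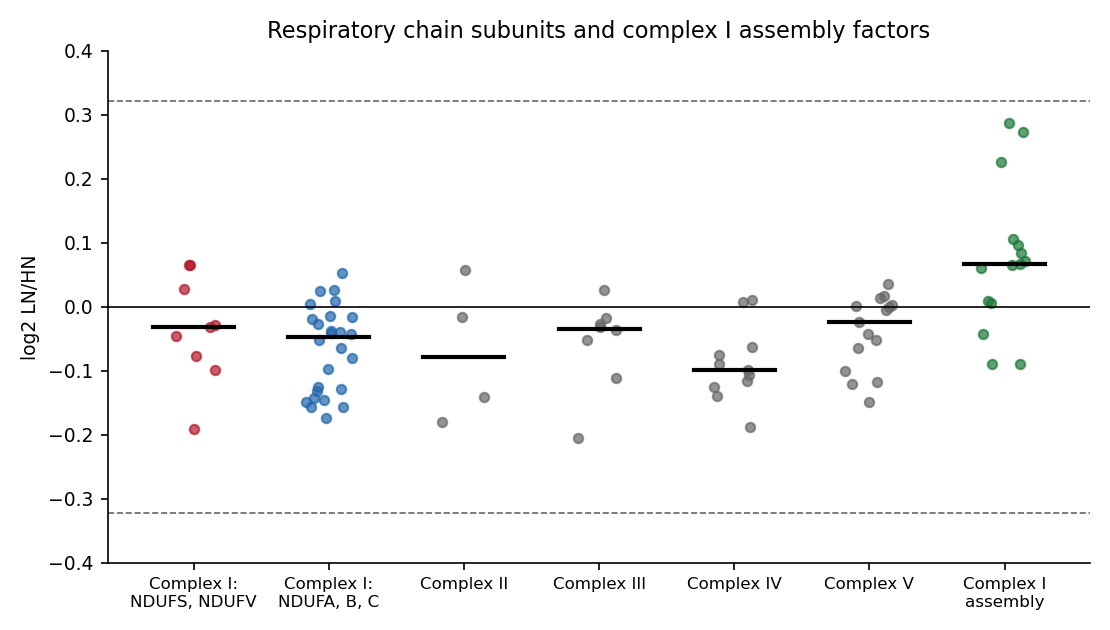
Log2 LN/HN (y axis) of the complex I subunits in 2 sets, of the subunits of complexes II to V and of the complex I assembly factors; each point is a gene, black bars are medians, dashed lines mark a log2 difference of 0.32, and points are spread sideways to be visible. The medians of all subunit sets lie between -0.099 and -0.024, and that of the assembly factors at 0.067; the NDUFS and NDUFV median turns to 0.0056 and 0.0035 under the alternatives named above.

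The tissue was checked with marker genes, whose part in the results above was not tested. Muscle genes were bright in both pools, for example skeletal actin ACTA1 (17.57 in HN and 17.53 in LN) and muscle creatine kinase CKM (16.68 and 16.44), while PAX7 and TTN had no matched accession. The 6 of 8 muscle markers with a value had a median of -0.088. It was -0.13 with the 75th percentile subtracted and turned to 0.0082 with the brightest probe. These markers ranged from CKM (-0.24) and DES (-0.15) to MYH3 (-0.036) and the perinatal myosin MYH8, which was past 0.32 (0.35). The 6 of 7 slow fiber markers with a value also had a median of -0.088, from MYH7 (-0.24) and TNNT1 (-0.12) to TNNC1 (-0.049) and MYL3 (0.060). The slow fiber median ranged from -0.14 with the 75th percentile subtracted to -0.018 with the brightest probe. Of 9 fast fiber markers 7 had a value, with MYL11 at 0.012 and MYH2 at 0.028. Their median was -0.20, or -0.22 with the 75th percentile subtracted and -0.075 with the brightest probe. The myosin MYH1 (-0.50) and the fast fiber actinin ACTN3 (-0.60) were lower in LN by more than 0.32. Summed over each list, the linear signal in LN was 0.971 times that in HN for the complex I subunits, 0.956 times for the slow fiber markers and 0.956 times for the fast fiber markers without TNNC2. With TNNC2, the brightest gene in both pools, whose log2 LN/HN the quantile method fixes at 0, the latter was 0.975.

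Markers of other cells in the muscle also differed between the pools. Fibroblast genes were higher in LN (6 of 6, median 0.34), from DCN (0.11) and PDGFRA (0.22) to the collagens COL3A1 (0.33), COL1A1 (0.34) and COL1A2 (0.42) and the proteoglycan LUM (0.35), the last 4 past 0.32. Of 7 macrophage markers 6 had a value and 5 were lower (median -0.27), with C1QB (-0.45) and CD68 (-0.35) past 0.32 and CSF1R (-0.062) and CD163 (0.023) nearest to 0. The macrophage median was -0.16 with normexp and -0.30 with no filter on dim probes. Endothelial genes were lower in 6 of 7 (median -0.23), from PECAM1 (-0.32, just short of the threshold) and EMCN (-0.25) to ESAM (-0.16). The direction of VWF, the remaining one, depends on a probe that was dim in 1 pool, and none is given. Of 4 adipocyte markers with a value, FABP4 (0.39) passed 0.32, CIDEC was at 0.22, PLIN1 at -0.14 and LIPE at -0.27. The 3 erythroid markers with a value were HBB (-0.17), ALAS2 (-0.032) and HBA (0.0021). The summed signal in LN was 1.22 times that in HN for fibroblast, 0.807 times for macrophage and 0.852 times for endothelial markers.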

How the data were processed

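The authors pooled LT muscle RNA of 4 fetuses per group and hybridized each pool to 1 one-color Agilent Bovine (v2) array, both on the same slide. They deposited spot intensities from Agilent Feature Extraction 11.0.1.1 (background-subtracted, not normalized between arrays, with flags and errors for each spot) and log2 values normalized by the quantile method. GeneSpring GX was used for the latter.

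Of 45220 spots per array, 43803 were not controls. Spots well above background made up 74.5% (HN) and 70.9% (LN), and none was saturated. Quantile normalization of the log2 intensities was run in limma 3.58.1 (R 4.3.3), leaving out 13 flagged spots and averaging repeated spots. Probes well above background on either array were used (32776 of 43652). Where this held for a single array, the other signal was raised to the lowest one well above background on its own array, unless it was already higher. The probe was given no value where the dim side was then not the lower one. Accessions were matched to symbols with a RefSeq gene table (26742 probes), and a gene is the mean of its probes. The number of arrays limits the precision. Values were handled with Python 3.11.15, numpy 2.4.6 and pandas 2.3.3, and figures were drawn with matplotlib 3.10.9. The steps were tested on simulated data.

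The members, the lists (complex I modules, assembly factors, complexes II to V, and markers of skeletal muscle, slow and fast fibers, endothelial, adipocyte, fibroblast, erythroid and macrophage cells) and 14 alternatives were chosen with earlier results of these data known. All members with a value are named, with probe values for the 3 lowest and 3 highest. Of the assembly factors and marker lists, genes past a log2 difference of 0.32 and the 2 highest and 2 lowest were to be named, and of complexes II to V only the latter. The normexp alternative (offset 50) used the median spot signal because the mean was not among the columns used. Promoter and protein sequences were not analyzed here.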

Additional observations from a re-analysis of the deposited data

How the results depend on the processing

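The median of the complex I subunits was below 0 in the main processing and in each of 12 ways of recomputing all genes, from -0.073 with the 75th percentile of each array subtracted to -0.027 with the median of the spike-in RNAs subtracted. The number of subunits lower in LN ranged from 25 (brightest probe of each gene) to 32 (75th percentile) of 35, and none passed 0.32 in either direction in any of these. Changing the filter on dim probes or keeping flagged spots could not move the subunits. All 60 of their probes were well above background in both pools and none was flagged. The restriction to RefSeq transcripts also left every subunit at its main value. No normalization, the 75th percentile and the spike-in median differ from each other only by a constant. Subtracting the 75th percentile moved the median of all genes to -0.042. Relative to the median of all genes, that of the subunits lay between -0.063 and -0.030. The median of the NDUFS and NDUFV subunits turned to 0.0056 with normexp and to 0.0035 with the brightest probe, and the difference between core and accessory subunits ranged from 0.013 (authors' normalized values) to 0.091 (normexp). The cause was not tested. Without NDUFA4 the median of the subunits was -0.044, and that difference was 0.021. Over all 13 ways of processing 22 subunits were lower each time, 3 (NDUFB5, NDUFS3 and NDUFS4) were higher each time, and 10 changed sign. Of 420 recomputed values of single subunits, 4 moved by more than the SD of a single spot (0.085), namely NDUFV3 with normexp (0.022) and, with the brightest probe, NDUFA3 (-0.025), NDUFA9 (0.035) and NDUFS1 (0.18). The 420 values and the 13 ways include the settings that leave every subunit unchanged, so these counts overstate how stable the values are. The same counts over all genes are not given here. The 8 spike-in RNAs had log2 LN/HN from -0.12 to 0.054, which limits what can be read from shifts of the size seen here. No paired analysis was possible because each group has 1 array, and for the same reason no replicate could be left out.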

Other observations

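Where a subunit of complex I had several probes, the brightest probe gave the higher log2 LN/HN more often than the dimmest one. This was so in 12 of 17 subunits (70.6%), with a median difference of 0.092. It was so in 17 of 29 subunits of complexes II to V (58.6%, median difference 0.012) and in 3784 of 7139 genes overall (53.0%, median difference 0.014). NDUFA4L2, the hypoxia-inducible relative of NDUFA4, was at 9.17 in HN and 8.98 in LN with 1 probe (-0.19), and it lay between -0.19 and -0.13 over the ways of processing.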
